A study of Homo sapiens with 4 samples.

Results

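The mRNAs of 10 amino acid transporters were followed through an RNA immunoprecipitation experiment (RIP-seq) against PHGDH, the enzyme that opens the serine synthesis pathway. They were chosen by name and function: 9 carriers of the plasma membrane (SLC1A4, SLC1A5, SLC3A2, SLC7A1, SLC7A5, SLC7A11, SLC38A1, SLC38A2 and SLC6A9) and SFXN1, the serine transporter of the mitochondrial inner membrane. All 10 were among the 44715 gene symbols of the tables. Lysates of HEK293T cells, a human embryonic kidney line, were precipitated under native conditions with an anti-PHGDH antibody (2 libraries) or an anti-IgG antibody as control (2 libraries). The labels give no other treatment or genotype, and no unprecipitated input was analysed here, so a value is the share of an mRNA in what was recovered and not its level in the cell. Values are read counts scaled to the same library total, as CPM. The study describes its libraries as biological replicates without saying how the cultures were separated.

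The libraries held from 1216477 to 3875746 reads assigned to genes. IgG replicate 1, the deepest, listed 4148 genes above 0, against 14518 to 16767 in the other 3, and 61.9% of the 9524 genes tested were at 0 there. Fold changes are therefore given with and without this library. Mitochondrially encoded genes took 28.8% of the reads in anti-PHGDH replicate 1 and from 3.37% to 8.69% in the other libraries. Of 5 mRNAs of the HEK293T type, VIM and KRT18 were above 0 in all 4 libraries, and KRT8, CDH2 and PAX2 in the 3 libraries other than IgG replicate 1. Of 5 mRNAs of other cells, PTPRC, CD3E and HBB were at 0 throughout, ALB had 1 read in 1 library, and the fibroblast collagen COL1A1 ranged from 0 to 12.3 CPM. The part of these differences in the results on the transporters was not tested.

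Cells obtain serine, glycine and other amino acids both by synthesis and by uptake. The SLC1A4 and SLC1A5 proteins (ASCT1 and ASCT2) exchange serine, alanine, cysteine and, for SLC1A5, glutamine, while the sodium-coupled SLC38A1 and SLC38A2 (SNAT1 and SNAT2) concentrate small neutral amino acids such as glutamine and alanine. SLC3A2 (CD98 heavy chain) carries SLC7A5 (LAT1, large neutral amino acids) or SLC7A11 (xCT, cystine against glutamate) to the membrane as a disulfide-linked pair. SLC7A1 (CAT1) takes up arginine and lysine, SLC6A9 (GLYT1) takes up glycine, and SFXN1 brings serine into mitochondria, where it feeds one-carbon metabolism. Many of these genes are known targets of ATF4, the transcription factor of the amino acid response, which binds composite elements with the core letters TGATGNAA.

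The stretches that hold those letters are shown because they are a feature that several of the 10 genes share and that their choice did not use. RefSeq promoter windows (GRCh38.p14; 250 bases before and 50 after an annotated start) matched 9 of the 10 genes, with 15 windows in all. The letters TGATGNAA, or TTNCATCA on the other strand, were in 5 of the 15 windows (33.3%), 1 window each of 5 genes, and in 3.62% of all 35116 windows. By gene, that was 5 of 9, against 4.46% of all 27305 genes in the table, many of which have a single window. The letters were chosen after the windows had been seen. The 30 bases around each match are given 5′ to 3′ on the gene's strand, with the match in capitals:
SLC1A4 (chr2:64989381-64989410, + strand): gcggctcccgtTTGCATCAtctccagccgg
SLC1A5 (chr19:46784893-46784922, - strand): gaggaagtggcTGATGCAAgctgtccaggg
SLC38A1 (chr12:46266502-46266531, - strand): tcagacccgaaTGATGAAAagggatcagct
SLC3A2 (chr11:62881719-62881748, + strand): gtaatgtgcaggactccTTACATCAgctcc
SLC7A1 (chr13:29595663-29595692, - strand): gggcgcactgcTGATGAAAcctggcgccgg
Counted from the annotated start of its window, the match begins 7, 97 and 4 bases before it in SLC1A4, SLC1A5 and SLC38A1. In SLC3A2 and SLC7A1 it begins at base 38 and base 8 after that start. The starts used for SLC1A4, SLC1A5, SLC38A1 and SLC3A2 lie inside the gene spans given below and not at their 5′ ends. A match describes letters only. The recovery of RNA bears on transcripts and not on promoters. Between the libraries numbered 2 (anti-PHGDH over IgG), the ratios of the 5 genes with a match ran from 1.13 to 1.82. Those of the 4 matched genes without one ran from 1.02 to 2.81. The 2.81 is SLC6A9 alone, on 13 against 6 reads, and the next highest is SLC7A5 at 1.61. A relation between the letters and recovery was not tested.

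Together the 10 mRNAs took 0.134% of the reads in anti-PHGDH replicate 1 (0.130 to 0.138%, 95% Wilson interval), and their share in anti-PHGDH replicate 2 was 0.103% (0.0979 to 0.109%). In IgG replicate 2 the share was 0.0792% (0.0749 to 0.0837%), and it was lowest in IgG replicate 1, at 0.0172% (0.0160 to 0.0186%). These intervals, like all others here, cover counting error only. All 10 were above 0 in 3 libraries and 6 were above 0 in IgG replicate 1. Both anti-PHGDH shares thus lay above both IgG shares, and IgG replicate 2 lay closer to the anti-PHGDH libraries than to IgG replicate 1.

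**Figure D1:**
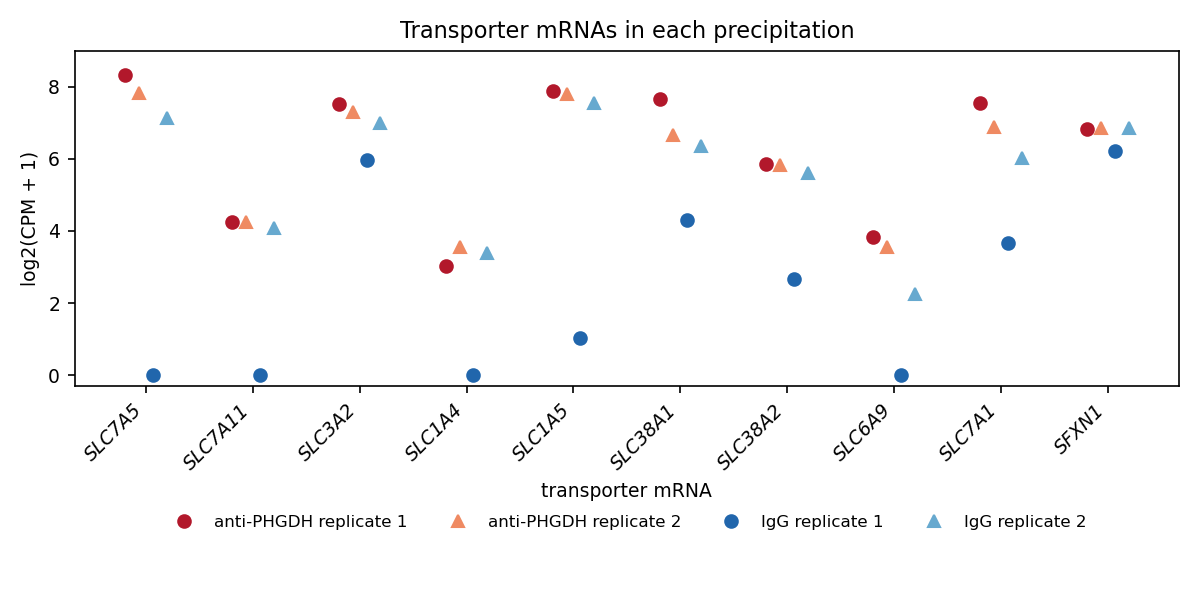
Level of each transporter mRNA as log2(CPM + 1) in the 4 libraries; red and orange points are anti-PHGDH replicates 1 and 2, dark and light blue points are IgG replicates 1 and 2. IgG replicate 1 is the lowest library for all 10 mRNAs and at 0 for 4 of them. The other 3 libraries differ from each other by at most 1.58 on this scale (SLC6A9).

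No transporter mRNA passed the test across all genes. In limma on log2(CPM + 1), 0 of the 10 had an adjusted p under 0.05 in either direction, beside 0.0105% of the genes tested called higher, which was 1 gene, and 0% called lower. At an unadjusted p under 0.05, limma gave 1 of the 10 (SLC7A5), beside 2.74% of all genes called higher. On the recovered reads edgeR and DESeq2 gave 0 of the 10, with 0 past an adjusted p under 0.05. At an unadjusted p under 0.05, edgeR called 21 of the 9524 genes higher and 162 lower, and DESeq2 89 and 149. The log2 fold change was above 0 for all 10, beside 80.7% of all genes; it was above 0 for 3 of the 10 after centring on library medians and for 9 after quantile normalization. The median over the 10 was 2.03 and that over all genes tested 1.92. Without IgG replicate 1 these medians were 0.35 and 0.14. An exact permutation test of 2 against 2 libraries cannot give a two-sided p below 0.333, so none was run on a single value.

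Among the heteromeric carriers, SLC7A5, the LAT1 light chain (chr16:87830023-87869507), had the largest fold change of the 10 with all 4 libraries. Anti-PHGDH replicates 1 and 2 recovered it at 321 and 226 CPM (274 ± 67.5, SD, n = 2), while IgG replicates 1 and 2 held 0 and 141 CPM (70.3 ± 99.4, SD, n = 2), from 1082, 275, 0 and 222 reads. Both anti-PHGDH libraries were above both IgG libraries, the lower by 1.61 times. In limma its log2 fold change was 4.51 (SE 1.92; adjusted p = 0.677). This value became 0.93 without IgG replicate 1 and 8.08 without IgG replicate 2. Between the libraries numbered 2 the ratio was 1.61 (95% exact interval 1.34 to 1.93), and anti-PHGDH replicate 1 over IgG replicate 2 gave 2.29 (1.98 to 2.65). Anti-PHGDH replicate 1 was at least 415-fold higher than IgG replicate 1, counting the latter at 3 reads (0.774 CPM), and IgG replicate 2 was at least 182-fold higher than it.

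SLC7A11, the xCT light chain (chr4:138164097-138242349), was at 18.1 CPM in each anti-PHGDH library, at 0 in IgG replicate 1 and at 15.8 CPM in IgG replicate 2. These rest on 61 and 22 reads for the anti-PHGDH pair and 25 for IgG replicate 2, and the 3 libraries lay at nearly the same level. Its fold change (log2) of 2.22 (SE 2.63; limma adjusted p = 0.677) was 0.18 once IgG replicate 1 was left out, and the ratio between the libraries numbered 2 was 1.14 (0.614 to 2.11). An antisense gene that overlaps it, SLC7A11-AS1, was at 0 in all 4 libraries.

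SLC3A2, the heavy chain both light chains share (chr11:62856109-62888860), was detected in every library, with 184 and 158 CPM in the anti-PHGDH pair (171 ± 18.6, SD, n = 2) against 61.9 and 126 CPM in the IgG pair (94.0 ± 45.3, SD, n = 2), replicate 1 first in each. The groups did not overlap, but the gap was 1.25 times. Its log2 fold change of 0.94 (SE 1.65; limma adjusted p = 0.706) was below the median of all genes (1.92), and at 0.43 it was above that median (0.14) once IgG replicate 1 was left out. The ratio between the libraries numbered 2 was 1.25 (1.02 to 1.54), that of anti-PHGDH replicate 1 to IgG replicate 2 was 1.46 (1.24 to 1.72), and within number 1 it was 2.97 (2.56 to 3.47).

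The neutral amino acid exchangers differed mainly in IgG replicate 1. SLC1A5 (ASCT2; chr19:46774883-46788594) gave 234 and 221 CPM in the anti-PHGDH pair (228 ± 9.39, SD, n = 2) against 1.03 and 188 CPM in the IgG pair (94.5 ± 132, SD, n = 2), from 789, 269, 4 and 297 reads. The limma fit gave a log2 fold change of 3.54 (SE 1.86; adjusted p = 0.677), which shrank to 0.27 when IgG replicate 1 was left out. Between the libraries numbered 2 the ratio was 1.18 (0.993 to 1.39), whereas the ratio of IgG replicate 2 to IgG replicate 1 was 182 (70.4 to 673). The 2 control libraries thus differed far more from each other than either anti-PHGDH library did from IgG replicate 2.

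SLC1A4 (ASCT1; chr2:64988479-65023865) was among the least recovered in reads, with 24 and 13 reads in the anti-PHGDH pair (7.13 and 10.7 CPM) against 0 and 15 reads in the IgG pair (0 and 9.50 CPM). IgG replicate 2 lay between the anti-PHGDH libraries, so the groups overlapped. Its log2 fold change of 1.59 (SE 2.07; limma adjusted p = 0.677) was -0.11 without IgG replicate 1 and below 0 after centring and quantile normalization.

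The sodium-coupled carriers SLC38A1 (chr12:46183063-46269043) and SLC38A2 (chr12:46358188-46372773) lie 89144 bases apart with 1 annotated gene between them. SLC38A1 gave 202 and 101 CPM in the anti-PHGDH pair (152 ± 71.6, SD, n = 2) against 18.8 and 81.7 CPM in the IgG pair (50.3 ± 44.4, SD, n = 2). SLC38A2 gave 57.0 and 55.9 CPM (56.5 ± 0.810, SD, n = 2) against 5.42 and 48.1 CPM (26.8 ± 30.2, SD, n = 2). The groups did not overlap for either gene, with gaps of 1.24 and 1.16 times. Their log2 fold changes were 1.83 (SE 1.81) and 1.69 (SE 2.19), both with a limma adjusted p of 0.677, and 0.80 and 0.23 without IgG replicate 1. The ratios between the libraries numbered 2 were 1.24 (0.959 to 1.60) and 1.16 (0.825 to 1.63). SLC38A1 differed between the anti-PHGDH replicates by 2.00 times (1.65 to 2.44), more than anti-PHGDH replicate 2 differed from IgG replicate 2.

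SLC7A1, the arginine and lysine carrier (chr13:29509414-29595688), gave 187 and 118 CPM in the anti-PHGDH pair (152 ± 48.8, SD, n = 2) against 11.6 and 64.6 CPM in the IgG pair (38.1 ± 37.5, SD, n = 2). Its lower anti-PHGDH library was 1.82 times its higher IgG library. A log2 fold change of 2.37 (SE 1.87; limma adjusted p = 0.677) came down to 1.19 without IgG replicate 1. Anti-PHGDH replicates 2 and 1 gave ratios to IgG replicate 2 of 1.82 (1.40 to 2.37) and 2.89 (2.34 to 3.60), and 45 reads in IgG replicate 1 gave a ratio within number 1 of 16.1 (11.9 to 22.3).

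SLC6A9, the glycine transporter (chr1:43996483-44031462), had the widest gap between groups, on few reads. The anti-PHGDH pair gave 13.4 and 10.7 CPM (12.0 ± 1.90, SD, n = 2) against 0 and 3.80 CPM in the IgG pair (1.90 ± 2.69, SD, n = 2), from 45, 13, 0 and 6 reads. It passed the minimum of 5 CPM in 2 libraries only through the anti-PHGDH libraries. Its lower anti-PHGDH library was 2.81 times its higher IgG library, and the ratio between the libraries numbered 2 had an interval from 0.998 to 9.03. In limma the fold change (log2) was 2.56 (SE 1.99; adjusted p = 0.677), or 1.43 when IgG replicate 1 was left out. Its gene span overlaps that of CCDC24, which gave 17.5 and 2.47 CPM in the anti-PHGDH pair against 0 and 2.53 CPM in the IgG pair. The use of strand in counting is not given in the sources used here, so reads from the overlap cannot be told apart.

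SFXN1, the mitochondrial serine transporter (chr5:175478560-175529742), was the most even of the 10. The anti-PHGDH pair gave 113 and 116 CPM (115 ± 1.71, SD, n = 2) against 73.5 and 114 CPM in the IgG pair (93.7 ± 28.6, SD, n = 2), from 382, 141, 285 and 180 reads. IgG replicate 2 lay between the anti-PHGDH libraries. Its fold change (log2) of 0.32 (SE 1.70; limma adjusted p = 0.901) was 0.01 once IgG replicate 1 was left out, and the ratio between the libraries numbered 2 was 1.02 (0.810 to 1.27). SFXN1 made up 42.7% of the reads of the 10 mRNAs in IgG replicate 1 and from 8.48% to 14.4% in the other libraries. Its ratio within number 1, 1.54 (1.32 to 1.81), was the lowest among the 6 mRNAs above 0 in IgG replicate 1, whose ratios reached 227 (88.4 to 836) in SLC1A5.

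**Figure D2:**
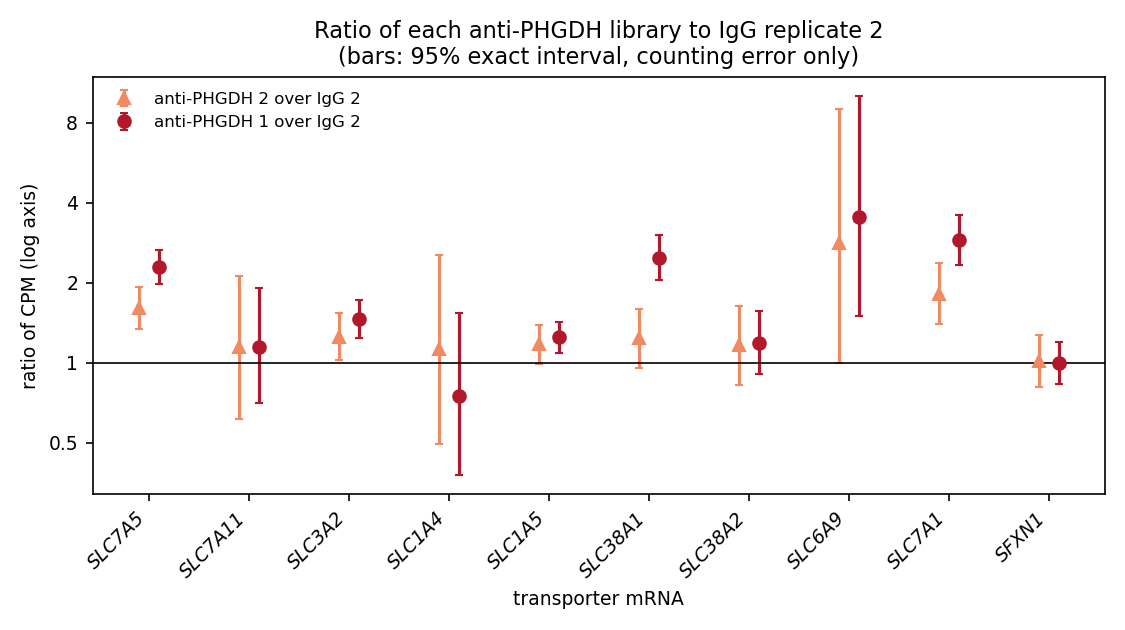
Ratio of CPM, on a log axis, of anti-PHGDH replicate 2 (triangles) and anti-PHGDH replicate 1 (circles) to IgG replicate 2 for each transporter mRNA; bars are 95% exact intervals that cover counting error only and the line marks a ratio of 1. The intervals of SLC7A5 (1.61 and 2.29), SLC7A1 (1.82 and 2.89) and SLC3A2 (1.25 and 1.46) lie above 1 with both anti-PHGDH libraries, and SFXN1 lies at 1.02 and 0.996. Between the libraries numbered 2, 63.1% of the genes tested have a ratio above 1. With TMM factors that ratio is 1.42 for SLC7A5, 1.61 for SLC7A1 and 1.11 for SLC3A2.

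IgG replicate 2 resembled the anti-PHGDH libraries in gene content, so the ratios to it were set beside those of all genes. Of the 10 mRNAs, 10 were higher in anti-PHGDH replicate 2 than in IgG replicate 2, beside 63.1% of the genes tested. With TMM scaling factors 8 of the 10 were higher, SLC1A4 and SFXN1 turning to 0.993 and 0.898, beside 50.5% of the genes. A ratio of at least 1.5 was reached by 3 of the 10 (SLC6A9, SLC7A1 and SLC7A5), beside 27.1% of the genes, and a ratio of at most the inverse of that by 0 of the 10, beside 8.39%. On the log2(CPM + 1) scale, 7.40% of the genes tested had a higher difference than SLC6A9, 16.2% than SLC7A1 and 21.5% than SLC7A5. The rank of SLC6A9 rests on 13 against 6 reads. It passed the filter only through the anti-PHGDH libraries, which favours a high ratio. The other 7 had between 39.7% (SLC3A2) and 61.4% (SFXN1) of the genes above them, which is the middle of the distribution.

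**Figure D3:**
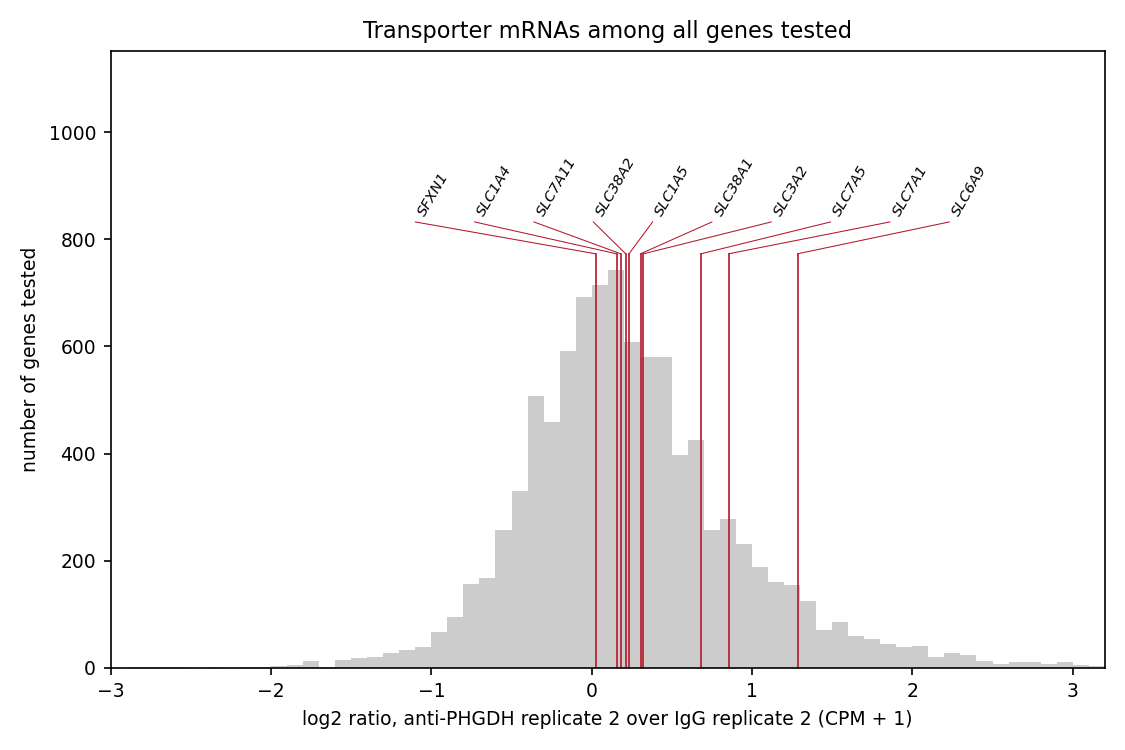
Histogram of the log2 ratio of anti-PHGDH replicate 2 to IgG replicate 2 (on CPM + 1) over the 9524 genes tested, with the 10 transporter mRNAs as red lines. From SFXN1 (0.02) to SLC3A2 (0.32) 7 of them lie in the centre of the distribution, and SLC7A5 (0.68), SLC7A1 (0.85) and SLC6A9 (1.28) to the right of it.

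Both anti-PHGDH libraries were above both IgG libraries for 8 of the 10 mRNAs, beside 38.3% of all genes tested, and SLC1A4 and SFXN1 were the exceptions. The filter fixed this order for SLC6A9, which passed it only through the anti-PHGDH libraries, and the 38.3% holds such genes too. The reverse order was seen for 0 of the 10, beside 6.16%. Among genes with at least 20 CPM in 2 libraries, both anti-PHGDH libraries were above both IgG libraries for 6 of 7, beside 33.9%. In 5 of those 8 mRNAs (SLC7A11, SLC3A2, SLC1A5, SLC38A1 and SLC38A2) the gap between the groups was between 1.14 and 1.25 times. A gap of at least 2-fold on CPM + 1 was reached by 1 of the 10 (SLC6A9), close to the 9.30% of all genes, and 0 of the 10 were 2-fold lower, beside 0.084%. At 0 in IgG replicate 1 were 4 of the 10 (SLC7A5, SLC7A11, SLC1A4 and SLC6A9), beside 61.9% of all genes; among genes with at least 20 CPM in 2 libraries it was 1 of 7, beside 46.6%.

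**Figure D4:**
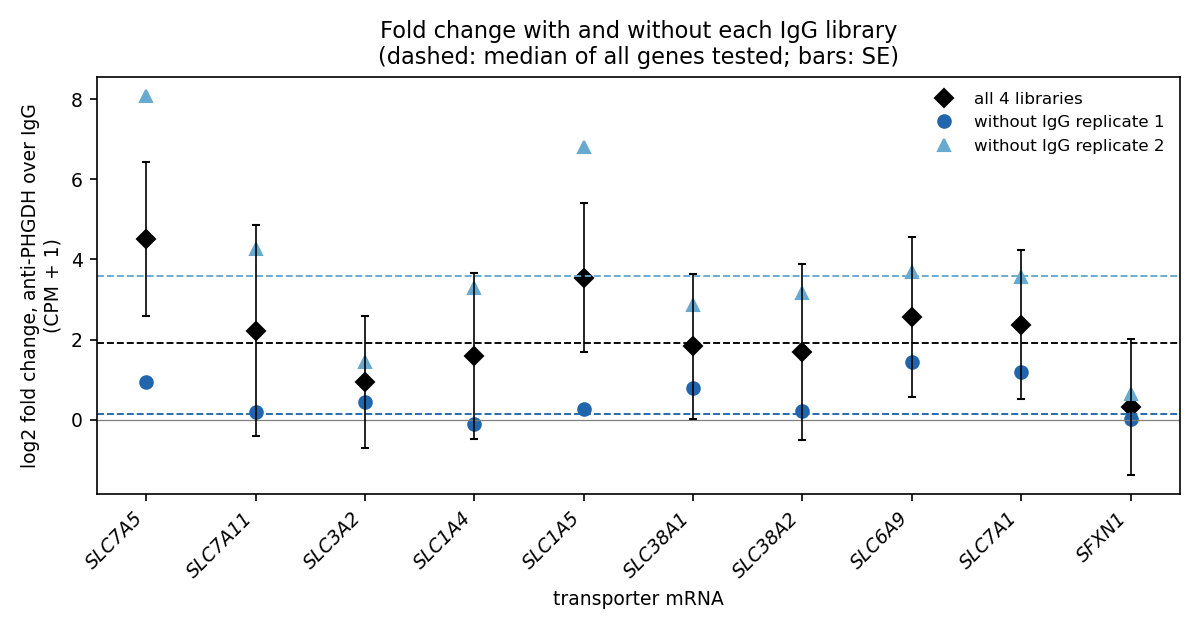
Log2 fold change of each transporter mRNA, anti-PHGDH over IgG on CPM + 1, with all 4 libraries (diamonds, bars are the SE), without IgG replicate 1 (circles) and without IgG replicate 2 (triangles); dashed lines are the median of all genes tested in the same colour. Without IgG replicate 1 the values run from -0.11 (SLC1A4) to 1.43 (SLC6A9), and without IgG replicate 2 from 0.63 (SFXN1) to 8.08 (SLC7A5).

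The choice of control library set the size of each fold change and the calls. With IgG replicate 1 as the only control, 8 of the 10 passed an adjusted p of 0.05 in limma, all but SLC3A2 and SFXN1, beside 74.9% of all genes called higher. With IgG replicate 2 as the only control 0 of the 10 passed (the lowest limma adjusted p was 0.714, for SLC6A9), beside 1.04% of all genes. In these fits the lone IgG library is assumed to vary like the anti-PHGDH libraries. The anti-PHGDH replicates differed from each other by a median of 0.26 (log2) over the 10 mRNAs and the IgG replicates by 2.66, against 0.62 and 3.48 over all genes.

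Reads of partner and paralog pairs were compared within libraries, which takes out the scaling between them. SLC38A1 had 3.55 reads per SLC38A2 read in anti-PHGDH replicate 1 (95% exact interval 3.02 to 4.18) and 3.48 in IgG replicate 1 (2.12 to 5.95), but 1.81 in anti-PHGDH replicate 2 (1.33 to 2.47). It was 1.70 in IgG replicate 2 (1.27 to 2.28). These values were alike within a replicate number and differed between the numbers: the ratio of these ratios was 1.02 (0.581 to 1.73) between the antibodies within number 1 and 1.07 (0.693 to 1.64) within number 2, and 1.96 (1.38 to 2.78) between the anti-PHGDH replicates. IgG replicate 1 contributes 73 and 21 reads to this comparison. The pattern is that of this pair only, as SLC7A5 over SLC3A2 was not alike within number 1 (1.75 and 0). SLC1A5 had 32.9 reads per SLC1A4 read in anti-PHGDH replicate 1, 20.7 in replicate 2 and 19.8 in IgG replicate 2, with overlapping intervals. In IgG replicate 1 SLC1A5 had 4 reads beside 0 of SLC1A4, which gives no ratio.

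SLC7A5 had 1.75 reads per SLC3A2 read in anti-PHGDH replicate 1 (1.58 to 1.93), 1.43 in replicate 2 (1.19 to 1.73) and 1.12 in IgG replicate 2 (0.917 to 1.36). In IgG replicate 1 it had 0 reads beside 240 of SLC3A2, a ratio of up to 0.0155. Relative to its heavy chain, the light chain was thus higher in each anti-PHGDH library than in either control. The difference within number 2 was not resolved by the reads (ratio of ratios 1.28, 0.976 to 1.69), and that between anti-PHGDH replicate 1 and IgG replicate 2 was 1.56 (1.25 to 1.95). SLC7A11 had 0.0984 and 0.115 reads per SLC3A2 read in the anti-PHGDH pair and 0.126 in IgG replicate 2, with overlapping intervals.

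**Figure D5:**
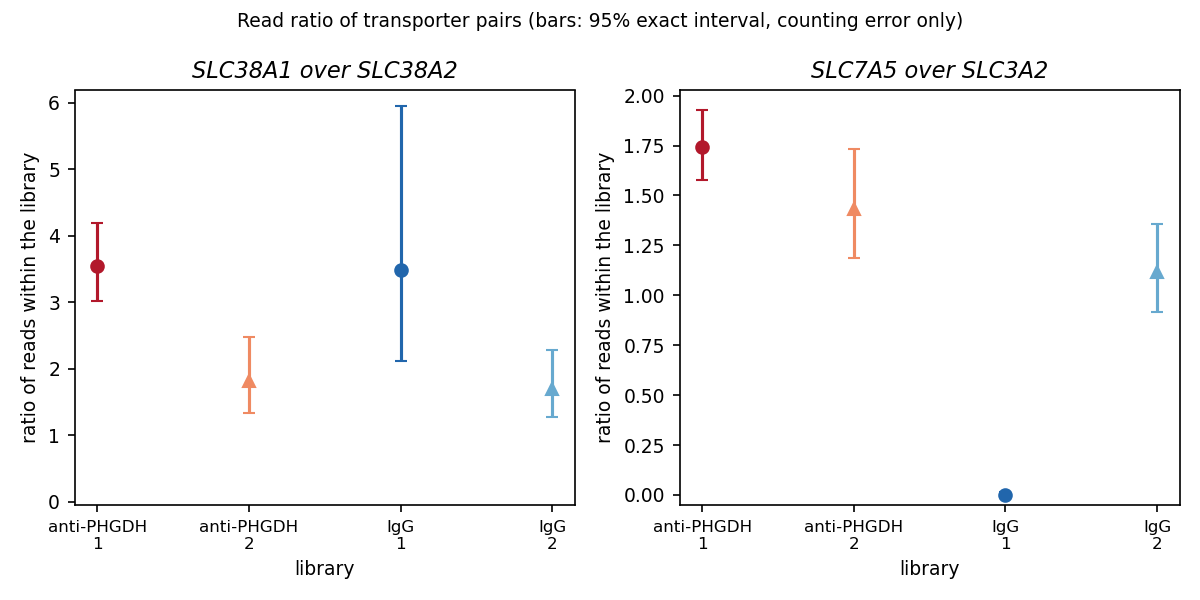
Reads of SLC38A1 per read of SLC38A2 (left) and of SLC7A5 per read of SLC3A2 (right) within each of the 4 libraries; bars are 95% exact intervals that cover counting error only. The left ratio is near 3.5 in both libraries numbered 1 (3.55 and 3.48) and lower in both numbered 2 (1.81 and 1.70), and the right ratio is 0 in IgG replicate 1 and 1.12 to 1.75 in the other 3.

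Other amino acid transporters were read from lists drawn up by function. Of 40 other carriers of the plasma membrane and lysosome, 24 were above 0 in at least 1 library and 12 passed the filter. In limma 0 of the 12 had an adjusted p under 0.05, beside 0.0105% of all genes called higher. At an unadjusted p under 0.05 limma gave 0, beside 2.74% called higher. In edgeR and DESeq2 there were 0 adjusted calls, with 1 and 0 at an unadjusted p under 0.05. Over all 9524 genes these unadjusted calls were 21 higher and 162 lower in edgeR, and 89 and 149 in DESeq2. Their median on the log2 fold change scale was 2.31 with all libraries and 0.47 once IgG replicate 1 was left out, beside 1.92 and 0.14 over all genes. The groups did not overlap, in the higher direction, for 6 of the 12, beside 38.3% of all genes. The filter fixed that order at least for SLC7A6, CTNS and SLC38A6, which passed it only through the anti-PHGDH libraries. SLC38A7, a lysosomal glutamine and asparagine transporter, gave 119 and 50.1 CPM in the anti-PHGDH pair against 0 and 12.7 CPM in the IgG pair (log2 fold change 4.40, limma adjusted p = 0.677; 2.52 without IgG replicate 1). SLC7A6, a light chain that also pairs with SLC3A2, gave 21.4 and 14.8 CPM against 0 and 3.17 CPM. CTNS, the lysosomal cystine exporter, came next, with 23.2 and 6.58 CPM against 0 and 3.17 CPM. The lowest fold changes (log2) of the list were those of SLC7A8 (0.95), SLC6A15 (-1.93) and SLC16A10 (-2.24), which became 2.02, 0.04 and 0.43 once IgG replicate 1 was left out.

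A 2-fold gap was seen for 3 of these 12: SLC38A7, SLC7A6 and SLC38A6, the last named after its values were seen, beside 9.30% of all genes. SLC7A6 and SLC38A6 reached the minimum of 5 CPM in 2 libraries only through the anti-PHGDH libraries, which favours a high ratio, and SLC38A7 and SLC7A6 were named for having the highest fold changes of the list. SLC38A7 and SLC7A6 had ratios between the libraries numbered 2 of 3.96 (2.36 to 6.93) and 4.67 (1.67 to 16.1), given here as a description.

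Of 13 mitochondrial amino acid carriers and other sideroflexins, 12 were above 0 in at least 1 library and 11 passed the filter. In limma 0 of the 11 had an adjusted or an unadjusted p under 0.05, beside 0.0105% and 2.74% of all genes called higher. It was also 0 of the 11 in edgeR and DESeq2, beside the counts over all genes given above. Their median on the same scale was 2.75 with all libraries and 0.03 once IgG replicate 1 was left out, beside 1.92 and 0.14 over all genes. The groups did not overlap in the higher direction for 5 of the 11, near the 38.3% of all genes. The filter fixed that order at least for SLC25A22. A 2-fold gap was seen for 3 of the 11 (SFXN3, SLC25A44 and SLC25A22, the last named after its values were seen and past the minimum only through the anti-PHGDH libraries), beside 9.30%. SFXN3, a close relative of SFXN1, gave 41.3 and 32.1 CPM in the anti-PHGDH pair against 0 and 6.97 CPM in the IgG pair, a ratio between the libraries numbered 2 of 4.60 (2.31 to 9.97). It was named as one of the highest of the list; in the same comparison SFXN1 had 1.02 (0.810 to 1.27), SFXN4 1.14, SFXN5 1.08 and SFXN2 0.757. SLC25A44, the mitochondrial carrier of branched-chain amino acids, gave 102 and 38.6 CPM against 0 and 12.7 CPM. SFXN4 gave 63.9 and 83.8 CPM against 0 and 73.4 CPM, and its fold change of 3.10 (limma adjusted p = 0.677) was -0.01 without IgG replicate 1. The lowest of the list, SLC25A29, SFXN5 and SFXN2, had log2 fold changes of 1.65, 1.48 and -0.80, and all 3 changed sign without IgG replicate 1, to -0.27, -0.07 and 0.03.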

How the data were processed

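The authors deposited 1 table of CPM values per library (44715 symbols). Per the submitters' processing notes, STAR 2.5.4b, featureCounts and hg38 were used; their settings, the annotation and the use of strand are not given in the sources used here. CPM values were whole multiples of 1 read (0.258 to 0.822 CPM), which gave back reads for 99.98% to 100% of the values above 0, within 0.00294 reads; none of the 7 exceptions was a transporter.

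Groups were compared on log2(CPM + 1) in limma 3.58.1, run in R 4.3.3, two-sided and with variances moderated toward an intensity trend. The 9524 genes that reached 5 CPM in 2 or more libraries were tested, with Benjamini-Hochberg adjustment. All 10 transporters passed the filter. The prior degrees of freedom were infinite, so an SE comes from the trend over genes and not from the gene's own spread. Fold changes on this scale understate changes of low genes. edgeR 4.0.16 and DESeq2 1.42.0 on the recovered reads were alternatives. P-values measure only the spread between these libraries, in limma as pooled over genes, and that spread may be technical. Ratios between libraries carry exact (Clopper-Pearson) intervals on reads. Without molecular identifiers, PCR copies may be counted, so these intervals may be too narrow. The procedure was run on counts simulated from a shared profile (dispersion 0.05), without a library like IgG replicate 1. Of 200 changed genes it recovered 3 at 2-fold, 192 at 4-fold and 200 at 8-fold, calling 0, 11 and 11 unchanged genes. Because the settings differ, this does not show how it performs on these libraries.

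The 10 members, the lists and the tests were chosen with earlier results of these data known. From each other list the 3 highest and 3 lowest fold changes were named. Positions and promoter windows are RefSeq's (GRCh38.p14); 41930 symbols matched.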

Additional observations from a re-analysis of the deposited data

How the results depend on the processing

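Of the 10 transporters, 0 passed the threshold in any setting that kept all 4 libraries, and 0 were called lower in any fit. Leaving out 1 library gave 0 to 8 called higher (8 without IgG replicate 2). Over all genes, 1 was called higher as reported, 11 when 0.1 was added before the log, 3 at a minimum of 1 CPM, 6 with no minimum, and 0 after centring on library medians, without the trend, in edgeR and in DESeq2. With 1 library left out the counts ran from 0 to 7129 higher and from 0 to 1032 lower; without IgG replicate 1 they were 99 and 3. The deviations of same-numbered libraries from their group means had r = 0.0058 across genes. As most genes are at 0 in IgG replicate 1, this value cannot decide whether such libraries share a culture or batch. With the replicate block limma called 4 genes higher and edgeR 0, with 0 transporters in either. The median log2 fold change of the 10 was 2.03 as reported, -0.47 after centring and 0.35 to 3.42 with 1 library left out. Centring also moved below 0 the log2 fold changes of SLC7A11 (-0.28), SLC3A2 (-1.56), SLC1A4 (-0.91), SLC38A1 (-0.67), SLC38A2 (-0.80), SLC7A1 (-0.12) and SFXN1 (-2.18); most genes are at 0 in IgG replicate 1, so centring lowers every fold change by 1 constant. SLC1A4 was at -0.39 after quantile normalization and ran from -0.11 (without IgG replicate 1) to 3.29 with 1 library left out. The count of transporters with a 2-fold gap (1) was 0 when 5 was added, at a minimum of 20 CPM (SLC6A9 is not tested there), after centring, after quantile normalization and at 4-fold, 3 at 1.5-fold, and 1 to 9 with 1 library left out. The share of all genes was 9.30% for the 2-fold gap as reported and is not given for the other settings. The counts at those settings are therefore not read as a result on the transporters. Depth limits SLC6A9, SLC1A4 and SLC7A11 most, with 6 to 25 reads in IgG replicate 2.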

Other observations

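The 2 other transporters with the lowest fold changes were those abundant in IgG replicate 1. As that library is 1 of the 2 controls, a high value there lowers the fold change by construction. SLC16A10, a carrier of aromatic amino acids, was at 700.0 CPM there (2713 reads) and at 26.7 and 18.9 CPM in the anti-PHGDH pair and 16.5 CPM in IgG replicate 2. SLC6A15, a neutral amino acid carrier, was at 434 CPM there (1684 reads) against 36.8, 21.4 and 27.2 CPM in the same order. SFXN2 was also highest there, at 74.3 CPM against 17.3 to 31.2 CPM. The ratios of SLC16A10, SLC6A15 and SFXN2 between the libraries numbered 2 (anti-PHGDH over IgG) were 1.15 (95% exact interval 0.626 to 2.09), 0.785 (0.463 to 1.31) and 0.757 (0.420 to 1.33). Of the 12 plasma membrane and lysosomal carriers tested, 9 were at 0 in IgG replicate 1, as were 10 of the 11 mitochondrial carriers, beside 61.9% of all genes tested.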
